A study of Mus musculus with 9 samples.

Results

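The genes described are those of the proteasome, the cell's main protease for ubiquitin-tagged proteins: every probe set whose single annotated symbol begins with Psm, then a letter from a to g, then a digit. The rule found 56 of the 35556 probe sets on the arrays, and they represent 50 genes. After a filter at a mean intensity of 167.1, the 50th percentile of the probe sets with 1 symbol, 52 of the 56 probe sets were kept and 46 of the 50 genes were tested, among 9864 genes in all. The 4 genes below the filter were Psma8, the testis form of an alpha subunit, Psmb8 of the immunoproteasome, Psmb11 of the thymus proteasome, and Psmg3, an assembly chaperone. Not all of these genes encode subunits. Psmg1 to Psmg4, Psmd5, Psmd9 and Psmd10 are assembly chaperones, Psme1 to Psme4 are activators, Psmf1 is a regulator, and Psmc3ip, a cofactor of meiotic recombination, and Psme3ip1, which binds an activator of the proteasome, match the rule by symbol.

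The 20S particle, a barrel of alpha and beta rings, holds the protease sites, which lie on Psmb5 (chymotrypsin-like), Psmb6 (caspase-like) and Psmb7 (trypsin-like). The 19S particle caps the barrel: its base of ATPases, Psmc1 to Psmc6, unfolds the substrate, and its lid removes the ubiquitin chain. Dedicated chaperones, the Psmg genes for the barrel and Psmd5, Psmd9 and Psmd10 for the base, help to build the particles, and other caps such as the ring of Psme1 and Psme2 can take the place of the 19S particle. In muscle the system is known for the breakdown of myofibrillar proteins during atrophy.

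The data are 9 arrays of total RNA from C2C12 cells, a mouse myoblast line kept in medium with serum, in 3 arms: control siRNA, Cugbp1 siRNA and Mbnl1 siRNA. Cugbp1, now named Celf1, and Mbnl1 encode proteins that bind RNA and control splicing and mRNA stability. All cells, controls included, received 5 ug/ml actinomycin D, which blocks transcription, and RNA was taken at 0, 2.5 or 5 h, so the design asks how fast each mRNA is lost and whether that changes with either knockdown. Each siRNA and time has 1 array, with no replicates, so a p-value here sets an effect against the variation between the siRNA arms over time and not against the spread of repeated cultures. RMA values are relative: a gene that rises over time gained share against the other transcripts on the array, and with transcription blocked a gained share need not be a gained amount.

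Array medians of intensity lay between 104.9 and 113, and any 2 arrays correlated at 0.98 to 0.995. Of the members, Psma3 has 3 probe sets and Psma5, Psmb3, Psmc1 and Psmd2 have 2 each; at 5 h the probe sets of a gene changed in the same direction, by 0.10 to 0.13 for Psma3, 0.14 to 0.21 for Psmc1, 0.05 to 0.13 for Psmb3, 0.08 to 0.09 for Psma5 and 0.06 to 0.08 for Psmd2. Celf1 was at 30.9%, 22.1% and 21.6% of control at 0, 2.5 and 5 h of the Cugbp1 siRNA arm, and Mbnl1 at 22%, 18.3% and 15.9% in the Mbnl1 siRNA arm. Celf1 was also lower under Mbnl1 siRNA, by a log2 difference of -0.59 ± 0.09 (SE, limma adjusted p = 0.000931). Both mRNAs were thus lower in the Mbnl1 arm, and the reason was not tested. Of the 7 myoblast markers all 7 passed the intensity filter, against 3 of 5 for differentiated muscle, 3 of 5 for fibroblasts, 1 of 6 for macrophages and leukocytes and 0 of 4 for adipocytes.

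After 5 h of arrest, 18 of the 46 proteasome genes were higher than at 0 h and 4 were lower (limma adjusted p under 0.05). The background was 35.6% of all tested genes higher and 32.8% lower. The risers were mostly subunits of the 20S barrel and its caps: Psma7, Psmb1, Psme1 and Psme2 each gained 0.26 to 0.34 on the log2 scale. The fallers were Psmd5, Psmd12, Psmg2 and Psme3ip1, none of them a barrel subunit. The median change of the 46 genes was 0.08, against 0.04 for all genes tested. Fewer cells of a type and less RNA per cell cannot be told apart in such bulk RNA.

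**Figure D1:**
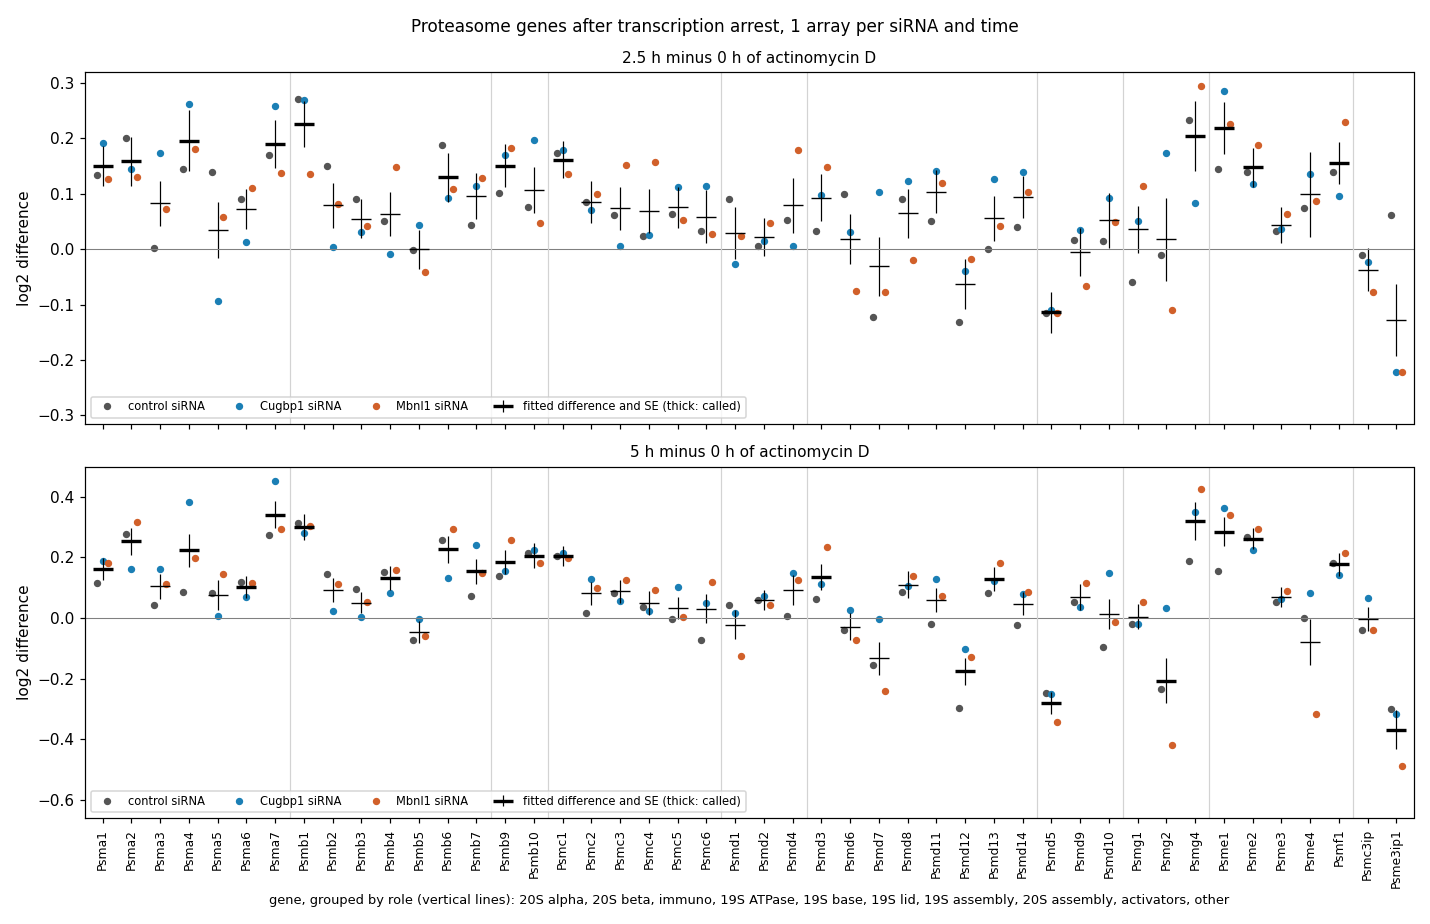
Change in log2 RMA intensity of the 46 tested proteasome genes at 2.5 h (top) and 5 h (bottom) of actinomycin D against 0 h, with 1 point per siRNA arm; the bar is the fitted difference with its SE and is thick where called. At 5 h the alpha and beta rings, on the left, lie mostly above 0, and Psmd5, Psmd12 and Psme3ip1 lie below 0 in all 3 arms.

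The sign of the typical member depends on how the arrays are scaled. Setting the 54 ribosomal protein genes tested to an equal median on each array subtracts 0.23 from every gene's 5 h change. Then 0 members were higher and 27 lower, against 2.85% and 59.4% of all tested genes. Setting the median of all tested genes equal adds 0.155. Then 40 members were higher and 2 lower, against 59.2% and 24.1% of all tested genes. The medians of all genes were -0.199 and 0.19 on these scales, against 0.04 as deposited, so a direction below is relative to the deposited scaling. Each scaling moves all genes by 1 constant, so the order of the members and the gaps between them stay as given.

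**Figure D2:**
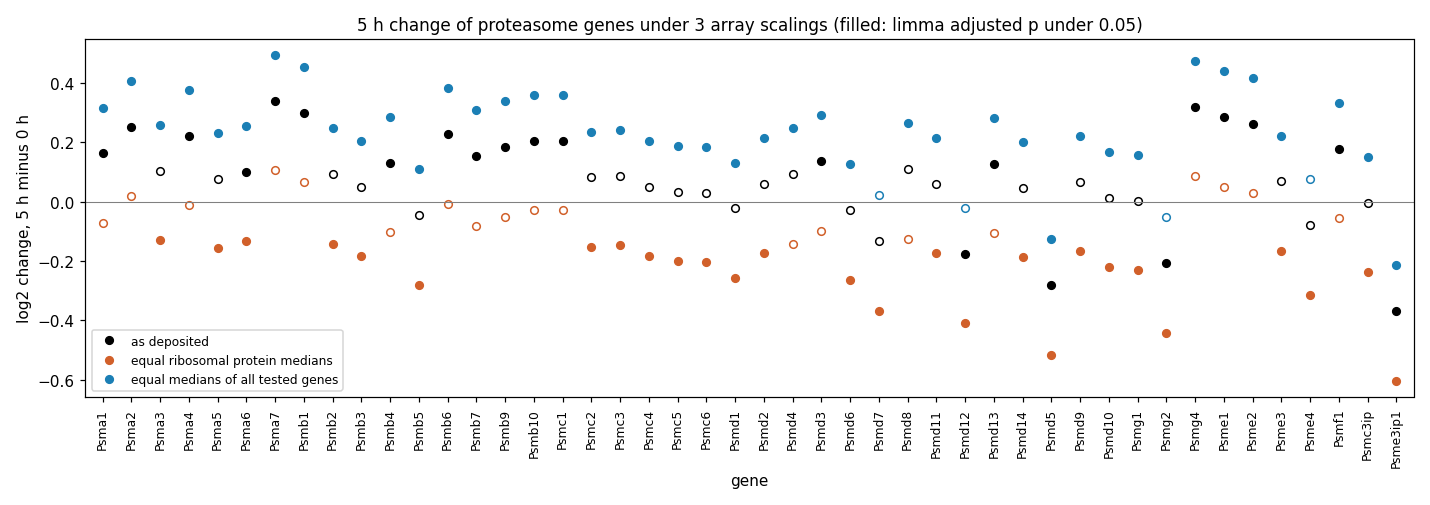
Log2 change at 5 h of each tested proteasome gene under 3 scalings of the arrays: as deposited, with equal ribosomal protein medians, and with equal medians of all tested genes; filled points have a limma adjusted p under 0.05. The 3 sets differ by a constant, and Psmd5 and Psme3ip1 are below 0 and called in each.

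In the alpha ring, which gates the barrel, 5 of 7 tested genes rose at 5 h, against 35.6% of all genes, with a median change of 0.16. Psma7 had intensities of 1695, 1594 and 1756 at 0 h in the control, Cugbp1 and Mbnl1 arms, 1908, 1908 and 1932 at 2.5 h, and 2050, 2181 and 2153 at 5 h. The 3 times did not overlap, and the fitted 5 h change was 0.34 ± 0.04 (SE, adjusted p = 0.000259). Psma2 and Psma4 rose by 0.25 ± 0.04 and 0.22 ± 0.05, Psma1 by 0.16 ± 0.04 and Psma6 by 0.10 ± 0.04. Psma4 went up by different amounts in the arms, from 1385 to 1470 in the control arm, from 1217 to 1588 under Cugbp1 siRNA and from 1244 to 1428 under Mbnl1 siRNA. Psma3 (0.11) and Psma5 (0.08) were not called. Psma6 had the least secure of the calls on this ring: it was kept in 3 of 9 fits that each left out 1 array, with adjusted p up to 0.108. It was lost without any of the 3 control arrays, the Cugbp1 5 h array or the Mbnl1 0 h or 5 h array, with changes of 0.09 to 0.12 over all 9 fits.

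In the beta ring 4 of 7 rose, against 35.6% of all genes. Of the catalytic subunits, Psmb6 and Psmb7 were called and Psmb5 was not, but their changes were not tested against each other. Psmb1, a structural subunit, rose from 1436, 1539 and 1588 at 0 h to 1787, 1869 and 1961 at 5 h in the control, Cugbp1 and Mbnl1 arms, a change of 0.30 ± 0.04 (adjusted p = 0.000426) with no overlap between the times. Psmb6 rose by 0.23 ± 0.04 (adjusted p = 0.0023) and Psmb7 by 0.15 ± 0.04 (adjusted p = 0.0118). Psmb5 was not called, with a change of -0.05 and a 95% interval of -0.13 to 0.04. With equal medians of all genes Psmb5, Psmb6 and Psmb7 were all called higher, Psmb5 by 0.109 (limma adjusted p = 0.0216). With equal ribosomal protein medians Psmb5 was called lower (-0.28), and Psmb6 and Psmb7 were not called. Below, the values of Psmb5 are as deposited. Its intensities were 9358, 9665 and 10132 at 0 h and 8889, 9633 and 9729 at 5 h, slightly lower at 5 h in each arm with the ranges overlapping. Psmb4 rose by 0.13 ± 0.04. The Psmb7 call was lost without the Cugbp1 0 h or 5 h array, with adjusted p up to 0.0552 and a change of at least 0.11. The Psmb4 call was lost without the control 0 h, control 5 h or Mbnl1 0 h array, with adjusted p up to 0.0833 and a change of at least 0.10.

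The promoters of Psmb5 and Psmb6 are shown because, of these catalytic subunits, Psmb6 was called at 5 h and Psmb5 was not. Of the 4 beta ring genes with a promoter in the RefSeq table, only this pair holds the core of the antioxidant response element. That element is the site through which Nfe2l1 and Nfe2l2 raise proteasome genes. Psmd10 is shown as the gene with the highest rise under Mbnl1 siRNA. Each runs 5′ to 3′ on the gene's strand, from 250 bases before to 50 after the RefSeq start (GRCm38.p6), with every match of TGACNNNGC or CCAAT on either strand in capitals, so that a CCAAT on the other strand reads ATTGG.
Psmb5, chr14:54617946-54618245, minus strand: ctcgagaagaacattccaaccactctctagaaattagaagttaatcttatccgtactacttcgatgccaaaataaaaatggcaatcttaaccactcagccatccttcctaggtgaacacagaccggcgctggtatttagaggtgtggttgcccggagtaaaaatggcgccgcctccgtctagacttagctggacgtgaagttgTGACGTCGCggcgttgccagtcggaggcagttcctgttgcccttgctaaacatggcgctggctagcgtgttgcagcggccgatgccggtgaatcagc
Psmb6, chr11:70525107-70525406, plus strand: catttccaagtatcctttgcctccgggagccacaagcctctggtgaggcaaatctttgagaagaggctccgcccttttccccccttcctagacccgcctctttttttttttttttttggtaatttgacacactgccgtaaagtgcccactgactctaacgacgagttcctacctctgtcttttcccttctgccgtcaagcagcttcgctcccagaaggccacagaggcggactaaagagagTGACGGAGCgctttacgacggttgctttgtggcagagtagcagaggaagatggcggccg
Psmd10, chrX:140956662-140956961, minus strand: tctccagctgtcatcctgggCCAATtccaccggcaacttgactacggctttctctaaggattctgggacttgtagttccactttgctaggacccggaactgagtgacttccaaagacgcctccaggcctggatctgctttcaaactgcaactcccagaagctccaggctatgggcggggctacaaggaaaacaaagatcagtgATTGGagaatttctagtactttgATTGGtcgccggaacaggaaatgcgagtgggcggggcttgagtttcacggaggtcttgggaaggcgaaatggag
The core begins 47 bases before the start of Psmb5 and 9 before that of Psmb6, on the gene's strand in each, and overlaps no CCAAT box. Psmd10 has no match to the core and 3 matches to CCAAT, and whether a factor binds there was not tested. Of the 42 member genes with a promoter in the RefSeq table, 14.3% held the core, against 14% of all 27025 genes there, and 38.1% held a CCAAT box, against 41.1%. The other members with the core were Psmc6, Psmd9, Psmd12 and Psme4. The members held these letters about as often as other genes, and a match is a description and not a bound site.

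Of the immunoproteasome subunits, which replace the catalytic ones after interferon, Psmb10 rose at 5 h by 0.21 ± 0.04 (adjusted p = 0.00246). It went from 373, 379 and 368 to 432, 442 and 417 in the control, Cugbp1 and Mbnl1 arms, with no overlap. Psmb9 had 160, 165 and 163 at 0 h, below the filter, and 175.5, 183 and 194.5 at 5 h, a change of 0.18 ± 0.04. It passed the filter only through its later times, so its calls at 5 and 2.5 h, which stand in the counts of members, are no support for a rise. With no filter its adjusted p was 0.0137 at 5 h and 0.0484 at 2.5 h. The mean of each other tested member at 0 h lay above the filter. Psmb8 lay between 71.3 and 89.3 on all 9 arrays and was not tested.

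The 19S particle had fewer calls. Among its 17 tested subunits 3 rose and 1 fell at 5 h, with a median change of 0.06. Of the 14 genes of the alpha and beta rings 9 rose and 0 fell, with a median of 0.14. Of all tested genes, 35.6% were higher and 32.8% lower at 5 h. A rise is not particular to the rings: of the 54 ribosomal protein genes tested, 44 were higher and 1 lower, with a median of 0.181. In the base only Psmc1 of the 6 ATPases rose, from 1937, 1957 and 2098 to 2233, 2270 and 2408 in the control, Cugbp1 and Mbnl1 arms, by 0.21 ± 0.03 (adjusted p = 0.000849). None of the 3 base subunits without ATPase activity was called, at changes of -0.02 to 0.09. In the lid Psmd3 and Psmd13 rose by 0.14 ± 0.04 and 0.13 ± 0.04, and Psmd12, a scaffold subunit, fell by 0.18 ± 0.05 (adjusted p = 0.00906). Psmd12 went from 2714, 2615 and 2428 to 2208, 2437 and 2223, lower in each arm and by most in the control arm. The Psmd3 call was lost without the Mbnl1 0 h or 5 h array (adjusted p up to 0.0825, change at least 0.10), and the Psmd13 call without the control 5 h, Cugbp1 0 h, Mbnl1 0 h or Mbnl1 5 h array (adjusted p up to 0.0956, change at least 0.10). Within single arms the median change of the 20S rings exceeded that of the 19S particle by 0.10 in the control arm, 0.07 under Cugbp1 siRNA and 0.06 under Mbnl1 siRNA. That gap does not depend on the scaling of the arrays, and it was not tested. At 2.5 h the gap was 0.086, 0.006 and 0.065 in the same order, so the medians nearly coincided in the Cugbp1 arm.

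The caps and the assembly factors included genes that moved in either direction. Psme1 and Psme2, neighbours in the genome whose products form a ring-shaped activator, rose by 0.28 ± 0.05 (adjusted p = 0.00099) and 0.26 ± 0.04 (adjusted p = 0.000302). Psme2 went from 2487, 2579 and 2452 at 0 h to 2992, 3011 and 3006 at 5 h, so that the arms lay close together at each time and the times did not overlap. Psmf1, a protein that binds and can inhibit the barrel, rose by 0.18 ± 0.04. Psme3 and Psme4, the activators of the nucleus, were not called, at 0.07 and -0.08.

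Of the chaperones, Psmg4 rose and Psmd5 and Psmg2 fell. Psmg4, which acts on the alpha ring, went from 692, 754 and 576.5 at 0 h to 787.5, 960 and 775 at 5 h, a rise of 0.32 ± 0.06 (adjusted p = 0.00236). Psmd5, a chaperone of the base that leaves before the particle is complete, fell from 1932, 2140.4 and 1743 through 1783, 1983 and 1608 to 1625, 1799 and 1373. It fell at each step in all 3 arms, by 0.28 ± 0.04 over 5 h (adjusted p = 0.000291). Psmg2 fell by 0.21 ± 0.08 (adjusted p = 0.0373), from 749 to 637 in the control arm and from 519.8 to 389 in the Mbnl1 arm, with 675 at 0 h and 691 at 5 h under Cugbp1 siRNA. Its call was kept in 2 of 9 fits that left out 1 array, those without the Cugbp1 0 h or 5 h array, and lost in the other 7 with adjusted p up to 0.16; the change was -0.12 without the Mbnl1 0 h array and -0.13 without the Mbnl1 5 h array. Psme3ip1 had the largest fall among the members, 0.37 ± 0.07 (adjusted p = 0.00137), from 927, 1056 and 1075 to 753.5, 847 and 766. The other calls at 5 h that are named here, Psma1, Psma2, Psma4, Psma7, Psmb1, Psmb6, Psmb10, Psmc1, Psmd5, Psmd12, Psme1, Psme2, Psme3ip1, Psmf1 and Psmg4, were kept whichever array was left out. So was that on Psmb9, but the filter was not redone in these fits, so this is no support for its rise.

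**Figure D3:**
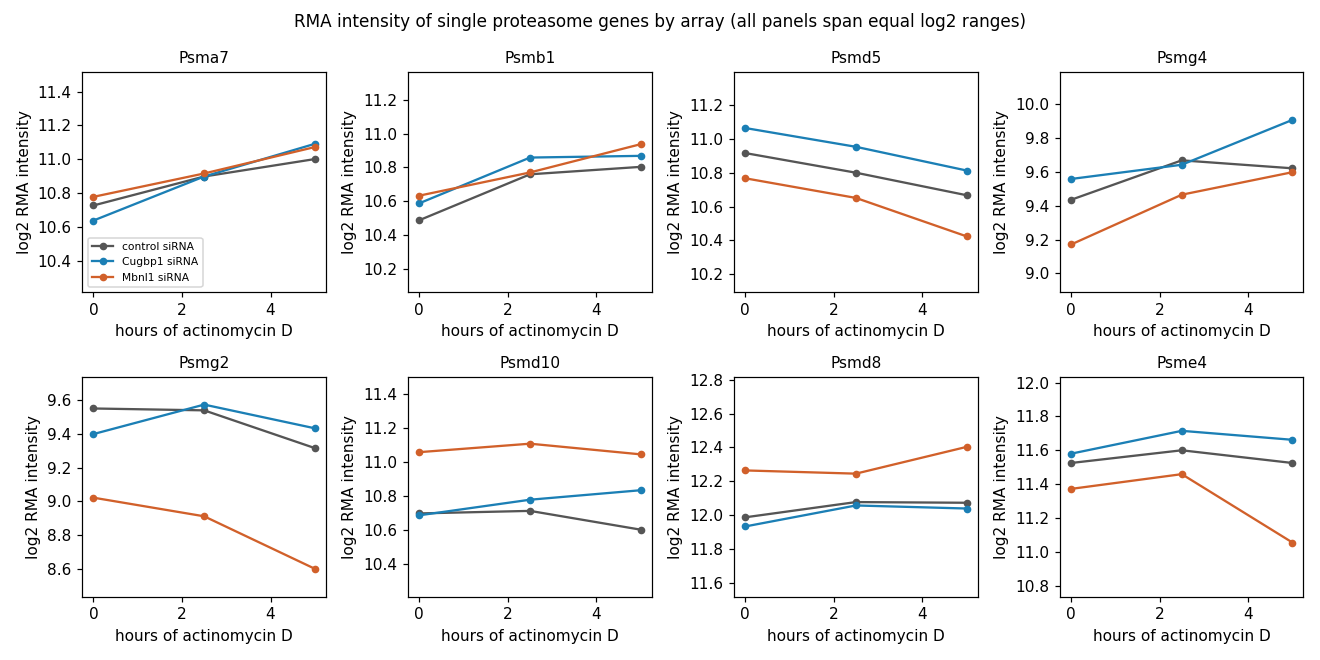
Log2 RMA intensity of 8 proteasome genes on the 9 arrays against hours of actinomycin D, with 1 line per siRNA and panels that span equal ranges. Psma7, Psmb1 and Psmg4 are higher and Psmd5 is lower at 5 h than at 0 h in each arm, while Psmd10, Psmd8 and Psmg2 show the Mbnl1 arm apart from the other arms at all 3 times.

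At 2.5 h subunits of the rings and caps also led, with smaller changes: 12 members were higher and 1 was lower, against a background of 23.1% higher and 24.2% lower, with a median of 0.07 for members and 0.03 for all genes. Psmb1 was 0.23 ± 0.04 higher (adjusted p = 0.00382), Psme1 0.22 ± 0.05, Psmg4 0.20 ± 0.06, Psma4 0.20 ± 0.05 and Psma7 0.19 ± 0.04. Psmc1, Psma2, Psmf1, Psma1, Psmb9, Psme2 and Psmb6 rose by 0.13 to 0.16, and Psmd5 fell by 0.11 ± 0.04 (adjusted p = 0.0354). Psmb7 (0.10), Psmb10 (0.11) and Psmb5 (0.00) were not called. With equal ribosomal protein medians 0 members were higher and 3 lower, against 2.41% and 32.8% of all genes. With equal medians of all genes 38 members were higher and 0 lower, against 52.4% and 18.5%. The calls on Psmb1, Psme1, Psma7, Psmc1 and Psme2 were kept whichever array was left out, and the other 8 were not. Psmf1 was kept in 8 of 9 such fits, Psma1 and Psmb9 in 7, Psma2 and Psma4 in 5, Psmg4 in 4, and Psmb6 and Psmd5 in 3, with adjusted p up to 0.169. Each of these calls was lost without arrays of 0 or 2.5 h, and that on Psmb6 also without the control 5 h array. The filter was not redone in these fits, so those that kept Psmb9 are no support for its rise. The number called was lowest, at 7, without the Cugbp1 2.5 h array and 8 without the control 2.5 h, Mbnl1 0 h or Mbnl1 2.5 h array.

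Under Cugbp1 siRNA 4 proteasome genes were called against control: 3 members were higher and 1 lower over the 3 times, against a background of 10.5% higher and 8.67% lower. All 4 are described here, and 3 are genes of the alpha ring. Psma5 had intensities of 1728, 1620 and 1734 at 0, 2.5 and 5 h, against 1350.3, 1488 and 1431 in the control arm. Every Cugbp1 array was above every control array, and the difference was 0.25 ± 0.05 (adjusted p = 0.0128). Psma1 was lower, with 2679, 3060 and 3051 against 3149, 3455 and 3413.5, again with no overlap and a difference of -0.19 ± 0.04 (adjusted p = 0.0103). Psma2 (0.16 ± 0.04, adjusted p = 0.042) and the chaperone Psmd5 (0.15 ± 0.04, adjusted p = 0.0276) were higher at each time with ranges that overlapped over the time course.

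None of these 4 calls was kept whichever array was left out. The Psma1 call was lost without the control 2.5 h array (adjusted p = 0.0612, difference -0.19), and the Psma5 call without the control 0 h array (adjusted p = 0.0565, difference 0.22) or the control 5 h array (adjusted p = 0.0605, difference 0.23). The calls on Psma2 and Psmd5 were each kept in 3 of 9 such fits, with adjusted p up to 0.174 and 0.128 and differences of at least 0.13. They were lost without any control array, the Cugbp1 0 h or 2.5 h array and, for Psma2, the Mbnl1 2.5 h array or, for Psmd5, the Cugbp1 5 h array. With equal ribosomal protein medians 1 member was higher and 1 lower, against 5.29% and 7.22% of all genes. Psmb5, Psmb6 and Psmb7 were at 0.09, 0.06 and 0.05, not called, and Psmb9 and Psmb10 at 0.07 each, not called.

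Under Mbnl1 siRNA 8 members were higher and 7 lower than in control, against a background of 24% higher and 31% lower. At every time the chaperone Psmd10 was higher, with the largest positive difference of the members, and Psmg2 and Psmc3ip were lower, with the largest negative ones. Psmd10, also called gankyrin, had intensities of 2133.5, 2208.5 and 2115 at 0, 2.5 and 5 h, against 1660.1, 1677 and 1554 in the control arm, which is 129%, 132% and 136% of control. The arms did not overlap, and the difference was 0.40 ± 0.05 (adjusted p = 0.000277). Psmg2, which pairs with Psmg1 to start the alpha ring, was at 519.8, 482 and 389 against 749, 743.5 and 637, or 69.4%, 64.8% and 61% of control, a difference of -0.62 ± 0.08 (adjusted p = 0.000251).

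Psmd8, the subunit that completes the lid, was at 4918, 4855 and 5417.5 against 4059, 4321 and 4308, higher at each time with no overlap and by 0.26 ± 0.04 (adjusted p = 0.00153). Psmf1 was higher by 0.19 ± 0.04 (adjusted p = 0.00371). Psmc3 (0.15), Psma2 (0.14), Psmb3 (0.12), the catalytic Psmb5 (0.11) and Psmc1 (0.10) were also called higher. Psmb6 (0.06), Psmb7 (0.11), Psmb9 (0.09) and Psmb10 (-0.04) were not called. Among the lower genes, Psmc3ip, the recombination cofactor, was at 219, 207 and 213 against 330, 327 and 321, a difference of -0.61 ± 0.04 (adjusted p = 1.16e-05). Psmd5 was lower by a log2 difference of -0.18 ± 0.04 (adjusted p = 0.00387) and Psma1 of -0.17 ± 0.04 (adjusted p = 0.00469). Psmd5 was thus lowest in the Mbnl1 arm and highest in the Cugbp1 arm at each time. Psma1 was below the control arm at each time under both siRNAs, and both comparisons use the same 3 control arrays.

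Psme4, an activator of the nucleus, was lower, with a log2 difference of -0.26 ± 0.08 (adjusted p = 0.0218), and that value rests on the last time. It was at 89.9%, 90.7% and 72.2% of control at 0, 2.5 and 5 h, and the difference was -0.14 without the Mbnl1 5 h array (adjusted p = 0.0298). The call was lost without the control 0 h array (-0.27, adjusted p = 0.0569) and without the control 5 h array (-0.21, adjusted p = 0.0935). Psmd1 and Psmd14, the lid's deubiquitinase, were lower, at -0.15 and -0.12, and were kept in 6 and 5 of 9 such fits. The calls on Psmd10, Psmd8, Psmf1, Psmg2, Psmc3ip, Psmd5 and Psma1 were kept whichever array was left out and with either scaling. That on Psmc3 was lost without the Mbnl1 2.5 h array (adjusted p = 0.0558, difference 0.12). Those on Psma2, Psmb3, Psmb5 and Psmc1 were kept in 4, 4, 2 and 2 of 9 fits, with adjusted p up to 0.125. These calls and those on Psmd1 and Psmd14 were lost without arrays of the control or Mbnl1 arm, and those on Psmb5 and Psmc1 also without the Cugbp1 2.5 h array. With equal ribosomal protein medians the calls on Psmb3, Psmb5, Psmc1 and Psmd1 were lost, and with equal medians of all genes those on Psmd1 and Psmd14. The unused probe set of Psmc1 was 0.049 higher and that of Psmb3 0.117 higher. With the mean of its probe sets the Psmc1 call was lost. The number called was lowest, at 9, without the control 2.5 h array. With equal medians of all genes, 15 members were higher and 5 lower, against 32.9% and 24.4% of all genes.

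**Figure D4:**
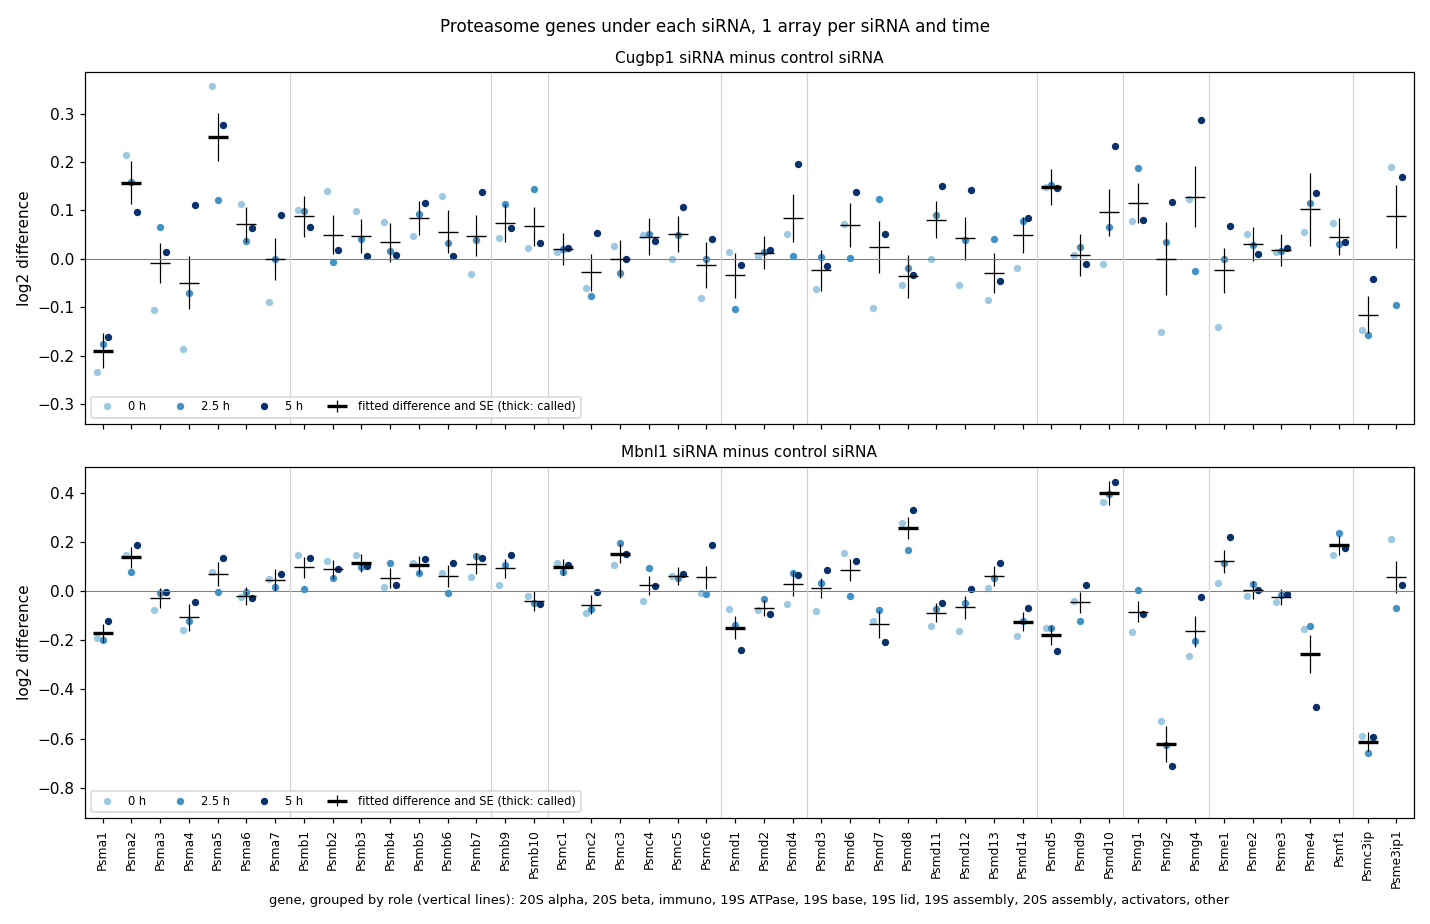
Log2 difference in RMA intensity from control siRNA for the 46 tested proteasome genes under Cugbp1 siRNA (top) and Mbnl1 siRNA (bottom), with 1 point per time; the bar is the fitted difference with its SE and is thick where called. Psma5 and Psma1 stand out in the top panel, and Psmd10, Psmd8, Psmg2 and Psmc3ip in the bottom panel.

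Other cell markers also differed in the Mbnl1 arm. The summed intensity of the 5 differentiated muscle markers was 2008 to 2105 there against 1287 to 1486 in control, that of the 5 fibroblast markers 3332 to 3434 against 2417 to 2698, and that of the 6 macrophage and leukocyte markers 975 to 1190 against 587 to 659. Cd68 was the only one of these last that passed the filter, and the defining marker Ptprc did not. Over the arrays Cd68 spanned log2 8.375 to 9.827, while the others on that list lay between 5.212 (Adgre1) and 6.3 (Csf1r). The difference in that sum is thus mostly that of Cd68 and not of the list. Among the fibroblast markers, Thy1 and Lum did not pass the filter, and Dcn had the widest range, log2 9.579 to 11.113. How far Dcn carries the fibroblast sum was not tested. The 7 myoblast markers summed to 24892 to 25412 against 26678 to 27389. Markers below the filter, such as Lum (mean log2 3.843), Adipoq (4.651) and Ptprc (5.655), are not taken as expressed. The part of the markers in the differences was not tested.

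The knockdowns set against each other gave 5 members higher under Mbnl1 siRNA and 10 lower, against a background of 23% higher and 33.4% lower. The difference is between the arms of the knockdowns, and the control arrays enter through the error of the fit. Psmd10 (0.31 ± 0.05, adjusted p = 0.00114) and Psmd8 (0.29 ± 0.04, adjusted p = 0.000787) were again higher, with Psmc3, Psme1 and Psmf1 at 0.14 to 0.15. All 3 tested chaperones of the barrel were lower: Psmg2 at -0.62 ± 0.08 (adjusted p = 0.000247), Psmg4 at -0.29 ± 0.06 (adjusted p = 0.0049) and Psmg1 at -0.20 ± 0.04 (adjusted p = 0.00456). Psmg1 was at 813, 880 and 843 under Mbnl1 siRNA and at 962, 997 and 949.6 under Cugbp1 siRNA, with no overlap. These 3 calls were kept whichever array was left out and with either scaling. Against control only Psmg2 of these was called lower under Mbnl1 siRNA, with Psmg4 at -0.163 and Psmg1 at -0.083, not called. Psmg3, below the filter and not tested, was at 144, 132 and 133.5 under Mbnl1 siRNA and 133, 112 and 130 under Cugbp1 siRNA. Between the knockdowns Psmc3ip (-0.50), Psme4 (-0.36), Psmd5 (-0.33), Psma5 (-0.18), Psmd14 (-0.17), Psmd11 (-0.17) and Psmd7 (-0.16) were also lower. Of the catalytic subunits Psmb5 (0.02), Psmb6 (0.01) and Psmb7 (0.06) were not called, nor were Psmb9 (0.02) and Psmb10 (-0.11) of the immunoproteasome. The calls on Psmc3 and Psmf1 were each kept in 7 of 9 fits that left out 1 array, Psma5 in 6, Psme1 in 5 and Psmd7 in 4, with adjusted p up to 0.156. They were lost without arrays of the knockdown arms, and that on Psmd7 also without the control 5 h array. With equal medians of all genes 11 members were higher and 6 lower, against 33.3% and 24.2% of all genes. On that scale the calls on Psma5, Psmd14, Psmd11 and Psmd7 were lost. That on Psmd7 was also lost with equal ribosomal protein medians.

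No proteasome gene was called for a difference in decay between the arms. The difference in hourly slope between Cugbp1 and control siRNA was called for 0 of 46 members, against a background of 0% higher and 0% lower, and between Mbnl1 and control siRNA for 0 of 46, against 0% higher and 0.0203% lower. At an unadjusted p under 0.05, 5 members passed in the first limma comparison and 1 in the second, as did 1129 and 1361 of all 9864 genes. The smallest adjusted p among members was 0.34 and 0.305. The 5 were Psma4, Psmg2, Psmd10, Psme1 and Psmd12, with slope differences of 0.04 to 0.06 log2 units per h under Cugbp1 siRNA, and the 1 was Psme4, at -0.06 ± 0.02 under Mbnl1 siRNA with a 95% interval of -0.12 to -0.01. For the catalytic Psmb5 the interval was -0.03 to 0.05 under Cugbp1 siRNA and -0.04 to 0.04 under Mbnl1 siRNA. Psmb6, Psmb7, Psmb9 and Psmb10 had slope differences of -0.025, 0.034, 0.004 and 0.002 log2 units per h under Cugbp1 siRNA and of 0.008, 0.015, 0.024 and -0.007 under Mbnl1 siRNA, none of them called.

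Partners of the proteasome that the rule does not reach were listed separately, and 22 of 32 listed genes were tested. At 5 h 7 rose and 7 fell, or 7 of 22 each way, near the 35.6% higher and 32.8% lower of all genes. Sem1, a small lid subunit, rose by 0.55 ± 0.04 (adjusted p = 8.11e-06) and Pomp, the maturation factor of the barrel, by 0.53 ± 0.04 (adjusted p = 1.63e-05); both exceeded every member's change and were higher with either scaling. Fbxo32, the ubiquitin ligase atrogin-1, fell by 1.42 ± 0.17 (adjusted p = 0.000198). Akirin2, which carries proteasomes into the nucleus, fell by 1.30 ± 0.04 (adjusted p = 2.44e-07). Both were lower with either scaling. The mean log2 of Fbxo32 over all arrays was 7.853, against the filter of 7.385, and its mean at 5 h lay below that filter. Fbxo32 passed the filter through its earlier times, so the sizes of its changes here and in the comparisons below are less secure. All 3 tested genes for the transcription of subunit genes fell, named here after their values were seen. Nfe2l2 fell by 0.63 (limma adjusted p = 6.19e-06), Ngly1 by 0.12 (adjusted p = 0.0456) and Nfe2l1 by 0.10 (adjusted p = 0.0499). The last of these adjusted p-values lie just under the threshold. With equal medians of all genes only Nfe2l2 of these was still lower, and Ngly1 and Nfe2l1 were at 0.04 and 0.05.

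At 2.5 h 7 of the 22 partners rose and 3 fell, against 23.1% and 24.2% of all genes, led by Sem1 at 0.36, Pomp at 0.36, Fbxo32 at -1.23 and Akirin2 at -0.59. Under Cugbp1 siRNA, where 10.5% of all genes were higher and 8.67% lower, only Txnl1 of the partners, a thioredoxin-like protein of the 19S particle, was higher (0.19 ± 0.05, adjusted p = 0.0381) and only Ubqln1, a shuttle factor, lower (-0.14 ± 0.04, adjusted p = 0.0458). Under Mbnl1 siRNA 7 partners were higher and 4 lower, against 24% and 31% of all genes, with Fbxo32 at 0.80 ± 0.17 (adjusted p = 0.00514), Pomp at 0.34 ± 0.04 (adjusted p = 0.000264), Uba6, a ubiquitin-activating enzyme, at -0.25 ± 0.04 and Faf2, a cofactor of the unfoldase Vcp, at -0.17 ± 0.04. Between the knockdowns 8 were higher under Mbnl1 siRNA and 5 lower, against 23% and 33.4% of all genes, led by Fbxo32 (0.90) and Pomp (0.31) and by Ecpas (-0.18), a protein that binds the 19S particle, and Nploc4 (-0.16), another cofactor of Vcp. Nfe2l1 (0.27, limma adjusted p = 0.000892) and Nfe2l2 (0.14, adjusted p = 0.0201), which fell at 5 h, were higher under Mbnl1 siRNA than in control. Against Cugbp1 siRNA they were higher too (0.15 and 0.19), and Ngly1 was called in neither comparison. These were also named after their values were seen. In the Mbnl1 arm the maturation factor Pomp was thus higher and the assembly chaperone Psmg2 lower than in control.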

How the data were processed

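Per the labels' protocols, 100 ng of total RNA per culture was labelled for Affymetrix whole-transcript arrays. Per the submitters' processing notes, the authors made the values with RMA in Affymetrix Expression Console (no version is named). Judged by their range, the deposited values are linear intensity; they were converted to log2 for all tests. Genes were named from the platform annotation, where 21789 probe sets have 1 symbol, 1621 several and 12146 none; 1 probe set with several symbols held a Psm symbol and was left out. Probe sets with a mean log2 of at least 7.385 were kept, and per gene the one with the highest mean was tested.

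For siRNA and time effects limma 3.58.1 (R 4.3.3) was fitted with siRNA and time as factors, with 4 residual degrees of freedom. For decay, a line in hours was added per siRNA, with 2 residual degrees of freedom. Each value after ± is the fit's SE over the 9 arrays. The Benjamini-Hochberg adjustment ran over the 9864 genes of each comparison, with calls at an adjusted p under 0.05. The scripts were tested on simulated data. Per comparison the text names the called members, the catalytic and immunoproteasome subunits, and the partners with the 2 largest called changes per direction; at 5 h this goes beyond the 10 largest rises, and those added were named after their values were seen. Alternatives were no filter, both scalings, the mean of a gene's probe sets, an intensity trend in eBayes and each array left out. The members and lists were chosen with earlier results of these data known.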

Additional observations from a re-analysis of the deposited data

Results flagged for a closer look

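Psma5 has a second probe set that the tests did not use, since its mean was the lower of the pair. It was 0.178 higher on the log2 scale under Cugbp1 siRNA, and all 3 Cugbp1 arrays (1308.5, 1321 and 1424) lay above all 3 control arrays (1144, 1255 and 1185). Unused member probe sets were searched for those with every array of a knockdown arm above every control array. This one was picked by that rule, so the separation is no support for the call on Psma5. The tested probe set of Psma5 was 0.25 higher. Probe sets of 1 gene may share sequence, and this was not tested.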

How the results depend on the processing

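With siRNA and time as terms, the fit already compares arrays of the same time or the same arm, so no separate paired analysis was run. The number of members called was 22 at 5 h as deposited and 42 with equal medians of all genes. At 2.5 h it was 13, and 8 with no filter, 3 with equal ribosomal protein medians and 38 with equal medians of all genes. Under Cugbp1 siRNA it was 4, and 2 with no filter or with equal ribosomal protein medians. Under Mbnl1 siRNA it was 15, and 8 with no filter. With 1 array left out, it ranged from 17 to 22 at 5 h, 7 to 13 at 2.5 h, 1 to 4 under Cugbp1 siRNA (1 without any of the control arrays, 2 without the Cugbp1 0 h or 2.5 h array), 9 to 16 under Mbnl1 siRNA and 10 to 16 between the knockdowns. It was 0 for both decay comparisons in every fit. The shares of all genes called with these scalings are given with each comparison above. With no filter 8.81% of all genes were higher and 11.9% lower at 2.5 h. The shares with no filter were 2.57% and 2.29% under Cugbp1 siRNA and 11.9% and 13.7% under Mbnl1 siRNA. Of 97 results on single members, 19 changed sign with equal ribosomal protein medians. Of these 12 were called rises at 5 h: Psmb6 -0.007, Psma4 -0.011, Psmb10 -0.028, Psmc1 -0.028, Psmb9 -0.05, Psmf1 -0.056, Psma1 -0.072, Psmb7 -0.08, Psmd3 -0.098, Psmb4 -0.103, Psmd13 -0.105 and Psma6 -0.133. The other 7 were called in neither fit: Psmb7 at 2.5 h (-0.012), the Cugbp1 slopes of Psmb9 (-0.01) and Psmb10 (-0.012), and the Mbnl1 slopes of Psmb5 (-0.025), Psmb6 (-0.02), Psmb7 (-0.013) and Psmb9 (-0.004). With equal medians of all genes 5 changed sign: Psmb5 at 5 h (0.109) and 2.5 h (0.098), both then called, and, not called, Psmb10 under Mbnl1 siRNA (0.016) and the Cugbp1 slopes of Psmb9 (-0.009) and Psmb10 (-0.011). With 1 array left out 10 results near 0, called in none of these fits, took both signs. They were Psmb5 at 2.5 h (-0.021 to 0.017), Psmb6 (-0.033 to 0.039) and Psmb9 (-0.01 to 0.046) between the knockdowns, the Cugbp1 slopes of Psmb6 (-0.052 to 0.002), Psmb9 (-0.016 to 0.024) and Psmb10 (-0.047 to 0.051), and the Mbnl1 slopes of Psmb5 (-0.018 to 0.024), Psmb6 (-0.025 to 0.041), Psmb7 (-0.007 to 0.036) and Psmb10 (-0.035 to 0.021). No sign changed with no filter, the mean of a gene's probe sets or the intensity trend. With no filter more genes are tested, and 21 single calls were lost. The number of arrays, 1 per siRNA and time, limits the precision, and no depth applies to arrays.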
